A study of Mus musculus with 18 samples.

Results

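The clustered histone genes are the protein-coding genes whose names begin with Hist1h, Hist2h, Hist3h or Hist4h, and they were chosen by that name alone. They numbered 68 of the 46078 genes in the deposited tables. By class there were 6 genes for the linker histone H1, 19 for H2A, 18 for H2B, 12 for H3 and 13 for H4. The Hist1 cluster on chromosome 13 held 55 of them, Hist2 on chromosome 3 held 10, Hist3 on chromosome 11 held 2, and Hist4 on chromosome 6 held 1.

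Bulk RNA was sequenced from sorted regulatory T cells (Tregs), a class of CD4 T cell that depends on the transcription factor Foxp3, restrains other immune cells and takes part in tissue repair. All animals were male Foxp3(DTR/GFP) mice aged 10 weeks, a strain in which Foxp3-expressing cells carry the diphtheria toxin receptor and a green fluorescent protein. The injured groups were bone with a cranial defect, muscle with volumetric loss of the quadriceps, skin with full-thickness punch wounds, and heart with an infarct made by ligating the left coronary artery, each collected on day 7. Each had 3 libraries, every one pooled from 3 mice, and they were set against 6 libraries of spleen Tregs from uninjured mice, for which pooling is not stated. Uninjured bone, muscle, skin and heart were not analysed here, so tissue of origin and injury cannot be told apart in any comparison with spleen. In bulk samples fewer cells of a type and less RNA per cell cannot be told apart either, and a higher level may mean more cells in S phase or more histone RNA in each of them.

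Nucleosomes wrap DNA around a core of H2A, H2B, H3 and H4, and H1 binds the linker DNA between cores. The clustered genes supply these proteins while DNA is copied, so their RNA accumulates in S phase and is degraded when replication ends. Their messages mostly lack introns and a poly(A) tail. They end instead in a short stem-loop, which is bound by the protein SLBP and directs processing, translation and decay. In dividing T cells this RNA is a sign of cells passing through S phase, while many, but not all, replacement histones encoded elsewhere are made throughout the cell cycle.

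Total counts per library ran from 11588253 to 22635760 in bone, 11582403 to 13358526 in muscle Tregs, 8375212 to 11907745 in skin, 11139361 to 12974890 in heart and 5970346 to 15756884 in spleen. The labelled cell type was matched by its markers, since all 8 Treg and T cell markers were detected in every group and Foxp3 lay at 587 to 837 CPM, counts scaled to library size, in the injured tissues and 344 to 444 CPM in spleen. Column names followed 2 styles, Endo (skin, heart replicate 1 and spleen replicates 1 to 3) and Tregs (bone, muscle, heart replicates 2 and 3, and spleen replicates 4 to 6). What the styles stand for is not given in the sources used here, and the style was a term in the model. In muscle, replicate 1 stood apart from replicates 2 and 3 in every histone class, and the histone sum, the median and the calls in muscle that rest on it are also given without it. Bone, muscle and skin share 1 estimate of the spread, and calls in bone and skin also moved without it. For 2 bone libraries the labels do not say which replicate they are, so they are called b and c. Levels are CPM with TMM scaling over all 18 libraries, and p-values measure the spread between these libraries.

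The stem-loop is shown first because it marks which RNAs are of this kind. Of the 68 genes, 66 had a transcript in GENCODE M21, and 44 of these held the histone stem-loop after the stop codon, at a median of 31.5 bases (range 21 to 58). Of the other 22, 18 have transcripts annotated to end within 50 bases of the stop codon, so that the window which would hold it is missing in whole or in part, and 4 have longer ends without a match (Hist1h2bc, Hist1h2bq, Hist1h2br and Hist2h2be). Among 58727 other protein-coding transcripts 16 (0.027%) had a match. The stem has 6 base pairs and the loop 4 bases, given in capitals below as DNA read 5′ to 3′ on the gene's strand, with GRCm38 positions.
Hist1h1e, H1, chr13:23621777-23621802, minus strand: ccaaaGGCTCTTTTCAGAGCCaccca
Hist1h2ab, H2A, chr13:23751567-23751592, plus strand: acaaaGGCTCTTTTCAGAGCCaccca
Hist1h2bb, H2B, chr13:23747198-23747223, plus strand: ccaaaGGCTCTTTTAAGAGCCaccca
Hist1h3c, H3, chr13:23745042-23745067, minus strand: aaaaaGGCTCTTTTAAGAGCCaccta
Hist1h4d, H4, chr13:23581945-23581970, plus strand: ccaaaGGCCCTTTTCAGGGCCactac
Hist1h4j, H4, chr13:21735432-21735457, plus strand: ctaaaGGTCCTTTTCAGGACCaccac
Hist4h4, H4, chr6:136803993-136804018, minus strand: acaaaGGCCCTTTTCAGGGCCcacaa
The stem differed by class. All 32 stem-loops of H1, H2A, H2B and H3 genes opened with GGCTCT, while the 12 of H4 genes opened with GGCCCT in 10 and GGTCCT in 2. In 22 of the 44 genes over 100 bases were annotated beyond the stem-loop, among them Hist1h1e with 1153 and Hist4h4 with 2445, which a message cut at the stem-loop would not contain.

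Near-identical copies limit what a single row means. A gene's exons were cut into all their 50-base words, and the median gene had 49% of its words found in no other transcript outside the gene. In 8 genes fewer than 10% were unique and in 33 over 50% were. Hist1h2af had 20.3% unique words, Hist1h1e 68% and Hist4h4 92.9%. How the authors counted reads that fit several genes, and whether strand was used, is not given in the sources used here, so rows with few unique words are uncertain and sums by class were formed beside the single genes.

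Summed over all 68 genes, the mean histone level was highest in skin Tregs. The 3 skin libraries held 6769, 6235 and 5904 CPM, the bone libraries 2742, 2337 and 2947 CPM, the muscle libraries 7917, 2941 and 2380 CPM, the heart libraries 3261, 2447 and 4449 CPM, and the 6 spleen libraries 2145 to 2969 CPM with a median of 2700 CPM. All skin libraries lay above all spleen libraries, the bone libraries lay among them, in muscle replicate 1 alone was far above them, and in heart replicates 1 and 3 were above them and replicate 2 was among them. The mean of skin was 2.38 times that of spleen, against 1.01 for bone, 1.67 for muscle and 1.28 for heart. The log2 ratio of muscle to spleen was 0.01 without replicate 1 and 0.74 with it. Set only against spleen libraries of its own naming style, skin stood at 2.59 times spleen, bone at 0.936 and muscle at 1.54, or 0.931 without muscle replicate 1.

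Every class was higher in skin. The skin mean was 2.54 times the spleen mean for H1, 2.72 times for H2A, 2.44 times for H2B, 2.42 times for H3 and 1.88 times for H4, and in each class the 3 skin libraries lay above all 6 spleen libraries. The heart libraries lay above all spleen libraries for H1, with 991, 1154 and 1396 CPM in heart against 655 to 919 CPM in spleen. They overlapped with spleen in the other 4 classes. Muscle lay above spleen in H2A, with 1085, 367 and 358 CPM in muscle against 232 to 349 CPM in spleen. Bone was below spleen in H4, with 427, 329 and 433 CPM in bone against 465 to 587 CPM in spleen. These sums were not tested, since each is a score over chosen genes whose rows can share reads.

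**Figure D1:**
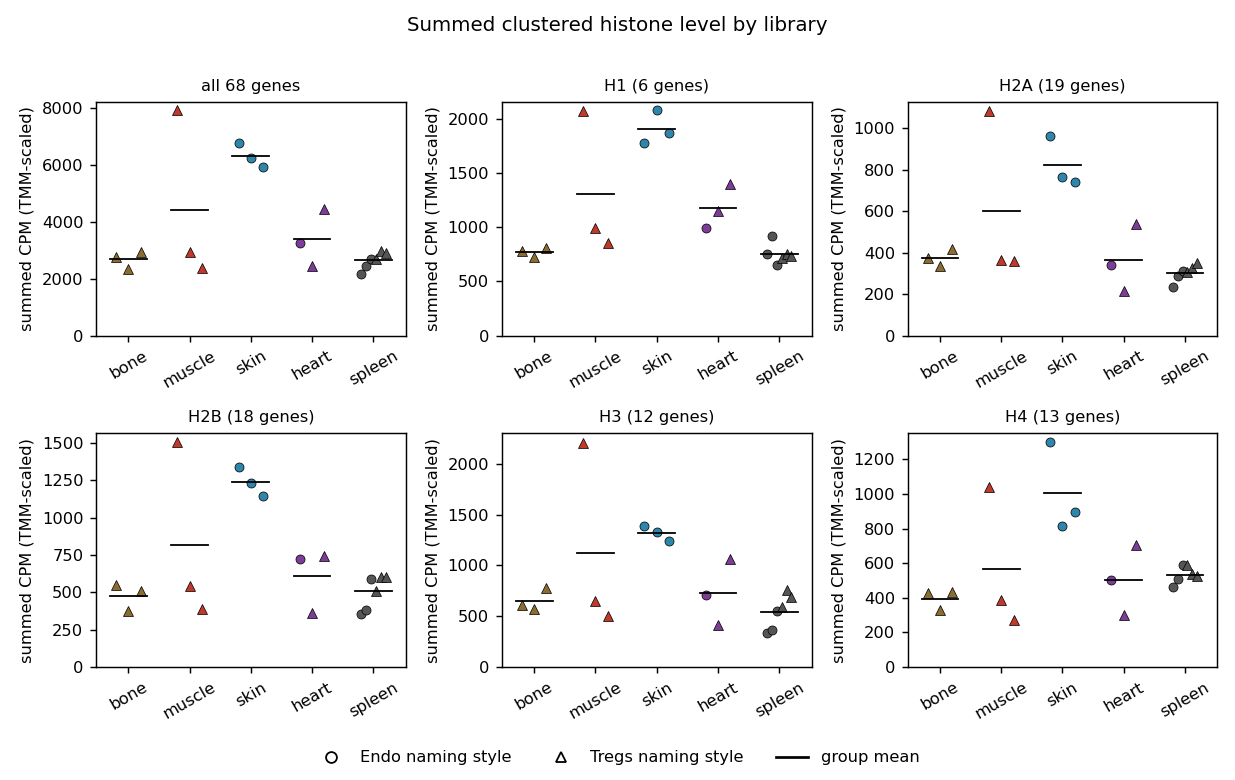
Summed TMM-scaled CPM (vertical axis) of all 68 clustered histone genes and of each class, 1 point per library, by tissue (horizontal axis), with circles for the Endo naming style, triangles for the Tregs style and a line at the group mean. The 3 skin libraries lie above all 6 spleen libraries in every panel, and muscle replicate 1 lies far above the other 2 muscle libraries.

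Gene by gene the same picture held. Of 62 genes that passed the filter on low counts, 35 rose in skin against spleen and 0 fell (quasi-likelihood F test of edgeR, adjusted over all genes by Benjamini-Hochberg, adjusted p below 0.05), where 15% of all genes tested were called higher and 12.8% lower. No gene was lower at an unadjusted p below 0.05, and DESeq2 and limma-voom also called 0 lower. In muscle 4 rose and 4 fell of 62, against a background of 14.2% higher and 11.3% lower. In bone 0 rose and 3 fell of 62, against 8.48% and 6.32%; 1 gene was higher at an unadjusted p below 0.05, DESeq2 called 1 higher and limma-voom 0. In heart 3 rose and 4 fell of the 61 tested there, against 11.8% and 8.46%. With all libraries, the shares of members called in bone, muscle and heart were below those of all genes, and that in skin was above. Without muscle replicate 1, which enters the same fit, the counts in bone, muscle and skin moved. Shares of all genes were not computed without it. The median log2 fold change of the members tested was -0.24 in bone, 0.59 in muscle Tregs, 1.49 in skin and 0.21 in heart, where the medians of all genes were 0.01, -0.01, -0.07 and -0.03. Without muscle replicate 1 the muscle median was -0.27.

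The number of calls moved with single libraries. Shares of all genes were computed for the main fits only, so none stands beside the counts with libraries left out. In skin 23 genes rose without spleen replicate 1 and 22 without spleen replicate 2. Without both, which leaves 1 spleen library of the naming style of skin, 4 rose, and 28 did when the style was also dropped from the model. In muscle 9 rose without replicate 2 and 15 without replicate 3, and 4 rose and 8 fell without replicate 1, while 1 fell without replicate 3, and 2 without spleen replicate 4 or 6. In heart 11 rose and 2 fell without replicate 2, and 6 rose without spleen replicate 3. In bone 1 fell without library c or spleen replicate 6, and 1 rose without spleen replicate 3. As a count that uses no model, 47 of 62 genes had all skin libraries above all spleen libraries, where 18.8% of all genes did. In bone 5 lay above and 8 below (12.2% and 8.49% of all genes), in muscle 6 and 4 (14.9% and 11.7%), and in heart 2 and 5 of 61 (13.2% and 10%).

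**Figure D2:**
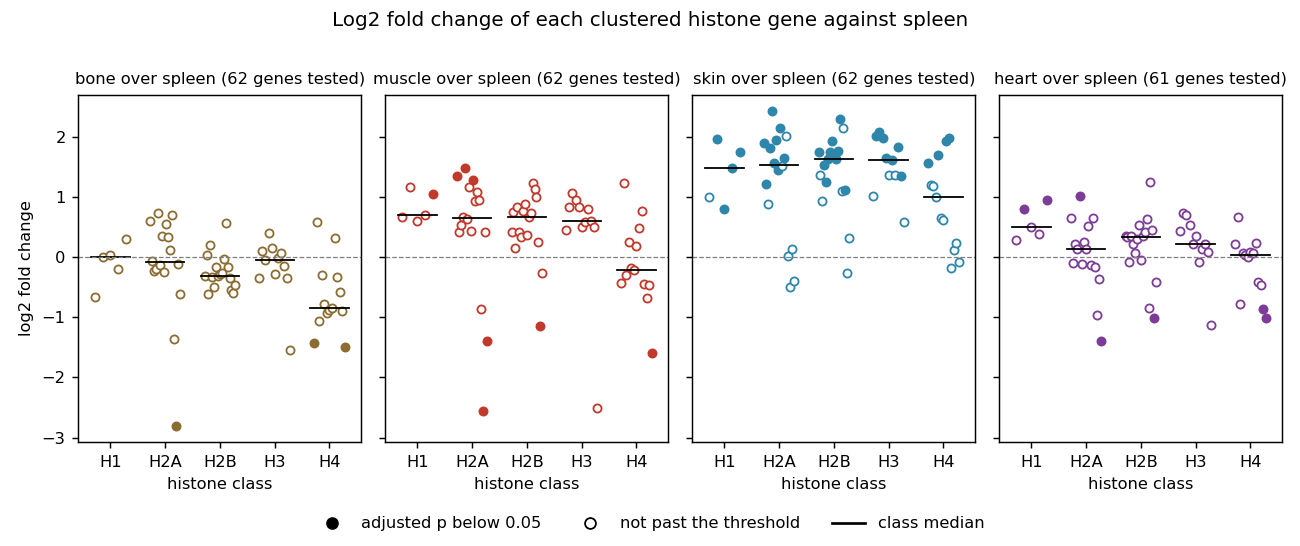
Log2 fold change against spleen (vertical axis) of each clustered histone gene that passed the filter, by class (horizontal axis), in bone, muscle, skin and heart, with filled points past an adjusted p of 0.05, open points not past it and a line at the class median. Most skin points lie above 0 and are filled in 35 of 62 genes, and the H4 medians are the lowest of the 5 classes in each panel.

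The linker histones, which bind where DNA enters and leaves the nucleosome and compact chromatin, include Hist1h1e, which was called in muscle, skin and heart. Hist1h1e (ENSMUSG00000051627, chr13:23620629-23622558 on GRCm38, minus strand) had 247.0, 235.9 and 240.2 CPM in bone, 578.1, 333.7 and 304.2 CPM in muscle, 460.2, 600.9 and 543.1 CPM in skin, 259.4, 384.1 and 443.4 CPM in heart, and 141.1 to 215.7 CPM (median 172 CPM) in spleen. Every injured library was above every spleen library, with skin and muscle replicate 1 the highest. Hist1h1e rose in muscle (log2 fold change 1.05, SE 0.18, adjusted p = 0.000143), in skin (1.75, SE 0.19, adjusted p = 1.54e-07) and in heart (0.95, SE 0.15, adjusted p = 0.000361), and these calls held in all 23 alternatives. In bone it stood at 0.30 (SE 0.18, adjusted p = 0.31), which did not pass. Of its exon bases 25.7% lie under another gene, Hist1h2be, so part of its reads could be counted for either.

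Hist1h1b had 97.3, 66.0 and 72.0 CPM in bone, 331.7, 99.1 and 99.98 CPM in muscle, 222.4, 259.5 and 229.8 CPM in skin, 99.2, 114.5 and 163.9 CPM in heart, and 49.0 to 97.4 CPM (median 67.1 CPM) in spleen. Muscle, skin and heart lay above all spleen libraries and bone overlapped with them. It rose in skin (1.96, adjusted p = 0.0049) and heart (0.79, adjusted p = 0.00722), and in muscle it stood at 1.17 (adjusted p = 0.0602). Hist1h1c, the most abundant member per kilobase of exon at 293 CPM per kb over all libraries, rose in skin by the least of the 35 genes called (log2 fold change 0.80, adjusted p = 0.0165), with 647.1, 801.6 and 659.3 CPM in skin and 265.3 to 513.4 CPM in spleen. Hist1h1d also rose in skin (1.48, adjusted p = 0.0192), and Hist1h1a stood at 1.00 there (adjusted p = 0.102). In bone the 3 Hist1h1a levels, 14.4 to 15.2 CPM, lay just below the 16.3 to 37.3 CPM of spleen. In all, 4 of 5 H1 genes tested rose in skin, 2 in heart, 1 in muscle and 0 in bone, where 15, 11.8, 14.2 and 8.48% of all genes rose.

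Among H2A genes, which with H2B form the outer dimers of the nucleosome core, 9 of 16 rose in skin, 3 rose and 2 fell in muscle, and 1 fell in bone. In heart 1 rose and 1 fell of the 15 tested. Only the skin share was well above that of all genes, since 3 of 16 in muscle stands against 14.2%. Hist1h2af (ENSMUSG00000061991, chr13:23533906-23534304, plus strand) had 34.2, 40.2 and 44.5 CPM in bone, 107.4, 47.0 and 46.1 CPM in muscle, 90.0, 77.6 and 72.7 CPM in skin, 34.1, 24.7 and 63.0 CPM in heart, and 12.3 to 27.8 CPM (median 19.8 CPM) in spleen. All bone, muscle and skin libraries were above every spleen library, and heart replicate 2 fell within the spleen range. It had the largest fold change of all members called in skin (log2 2.43, SE 0.27, adjusted p = 6.12e-07) and rose in muscle (1.48, SE 0.26, adjusted p = 0.000162); both calls held in all 23 alternatives. In heart it rose (1.02, adjusted p = 0.0119), but not when only libraries of 1 naming style were used (adjusted p = 0.105), and in bone it stood at 0.73 (adjusted p = 0.0557). With 20.3% unique words, its reads can belong in part to other H2A genes.

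Hist1h2ab and Hist1h2ak were called higher in skin and muscle. Hist1h2ab had 81.4, 64.6 and 80.7 CPM in bone, 228.5, 79.5 and 77.5 CPM in muscle, 171.9, 154.9 and 136.3 CPM in skin, 69.0, 43.4 and 103.9 CPM in heart, and 28.1 to 55.2 CPM (median 47.8 CPM) in spleen. It rose in skin (1.90, adjusted p = 0.00205) and muscle (1.35, adjusted p = 0.0156; 0.66 without muscle replicate 1, adjusted p = 0.0187). Hist1h2ak rose in skin (2.15, adjusted p = 0.000702) and muscle (1.28, adjusted p = 0.0184; 0.59 without muscle replicate 1, adjusted p = 0.0303), and it reached 140.5 CPM or more in skin and 60.7 CPM or less in spleen. With libraries of 1 style only, Hist1h2ak had an adjusted p of 0.0668 in muscle.

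For H2B, 11 of 17 genes rose in skin, 0 rose in bone, muscle or heart, and 1 fell in muscle and in heart. Of all genes, 15, 8.48, 14.2 and 11.8% rose in skin, bone, muscle and heart, and 11.3 and 8.46% fell in muscle and heart. Hist1h2bb, the most abundant of the H2B genes per kilobase at 250 CPM per kb, had 78.1, 63.6 and 99.6 CPM in bone, 273.0, 76.0 and 50.9 CPM in muscle, 269.1, 265.7 and 251.7 CPM in skin, 162.7, 47.4 and 126.2 CPM in heart, and 57.8 to 109.9 CPM (median 94.7 CPM) in spleen. The skin libraries were close together and above all of spleen, while muscle and heart spread across the spleen range. It rose in skin (1.75, SE 0.53, adjusted p = 0.0295). Hist1h2bn (1.76, adjusted p = 0.0109) and Hist1h2bg (1.25, adjusted p = 0.0481) rose there too. Hist1h2bp rose the most of its class (2.29, SE 0.51, adjusted p = 0.00141) and kept that call in all 23 alternatives, at low levels of 8.31, 10.2 and 10.3 CPM in skin and 1.27 to 2.75 CPM in spleen.

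H3 genes encode the core histone whose tail carries much of the chromatin marking, and 7 of 11 rose in skin with 0 called in bone, muscle or heart. Of all genes, 15% rose in skin, and 14.8, 25.5 and 20.3% were called in either direction in bone, muscle and heart. Hist1h3c had 78.3, 65.0 and 83.0 CPM in bone, 333.5, 85.7 and 70.5 CPM in muscle, 190.8, 203.1 and 175.6 CPM in skin, 108.4, 47.7 and 141.7 CPM in heart, and 28.6 to 100.3 CPM (median 65.1 CPM) in spleen. Skin was above all of spleen, and spleen replicates 1 and 2 were the lowest libraries of all. It rose in skin by 2.07 on the log2 scale (SE 0.57, adjusted p = 0.0199), and Hist1h3e by 1.64 (SE 0.40, adjusted p = 0.0088). Hist1h3f stood at 1.37 in skin (SE 0.53, adjusted p = 0.0822), with 183.3, 256.2 and 205.3 CPM in skin and 65.5 to 177.8 CPM in spleen, and it did not pass.

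H4 had the smallest share of calls in skin. There 4 of 13 H4 genes rose, which were Hist1h4a, Hist1h4f, Hist1h4j and Hist1h4k, and the class median was 0.99, against 1.48 for H1, 1.53 for H2A, 1.62 for H2B and 1.61 for H3. In bone the H4 median was -0.85 and 2 of 13 fell, as did 1 in muscle and 2 in heart. Of all genes, 15% rose in skin, and 6.32, 11.3 and 8.46% fell in bone, muscle and heart. Without muscle replicate 1, Hist1h4a, Hist1h4c, Hist1h4h, Hist1h4m, Hist2h4 and Hist4h4 fell in muscle. Hist1h4d, the most abundant of its class per kilobase at 203 CPM per kb, had 175.7, 143.9 and 179.3 CPM in bone, 443.8, 167.3 and 118.2 CPM in muscle, 468.4, 331.9 and 330.6 CPM in skin, 164.3, 137.4 and 330.3 CPM in heart, and 158.3 to 229.2 CPM (median 191 CPM) in spleen. Skin lay above spleen and the others overlapped with it, and the log2 fold change in skin was 0.99 (SE 0.38, adjusted p = 0.0763).

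Hist1h4a was called in opposite directions in bone and skin. It had 5.16, 5.14 and 8.29 CPM in bone, 22.6, 9.43 and 4.72 CPM in muscle, 41.0, 19.2 and 26.5 CPM in skin, 15.3, 5.58 and 25.7 CPM in heart, and 4.68 to 18.8 CPM (median 13.2 CPM) in spleen. The skin libraries were above all of spleen, and bone overlapped with spleen because of spleen replicate 2. It fell in bone (-1.43, SE 0.46, adjusted p = 0.045), a call held in 12 of 23 alternatives, and rose in skin (1.56, SE 0.47, adjusted p = 0.0187), held in 18. Hist1h4f rose in skin (1.70, adjusted p = 0.0232) and stood at -0.79 in bone (adjusted p = 0.331). Hist1h4h was not called, at 0.65 in skin (adjusted p = 0.329) and -0.93 in bone (adjusted p = 0.215).

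With all libraries, most calls of lower levels lay outside the Hist1 cluster, with 2 of 3 in bone, 4 of 4 in muscle and 4 of 4 in heart. Of the genes tested, Hist1 held 51 (50 in heart), Hist2 8, Hist3 2 and Hist4 1. For muscle this rested on replicate 1. Without it, Hist1h2be, Hist1h4a, Hist1h4c, Hist1h4h and Hist1h4m of Hist1 were lower in the same edgeR test (adjusted p = 0.00463 to 0.0381). Hist2h4, Hist3h2a and Hist4h4 were lower there too (adjusted p = 0.00015 to 0.0149). Hist4h4 (ENSMUSG00000096010, chr6:136801553-136804415, minus strand), which encodes the same H4 protein from chromosome 6, had 4.99, 5.30 and 7.35 CPM in bone, 8.08, 4.90 and 3.23 CPM in muscle, 19.6, 12.9 and 24.8 CPM in skin, 13.5, 4.09 and 8.89 CPM in heart, and 12.9 to 22.1 CPM (median 18.1 CPM) in spleen. Bone and muscle were below every spleen library, heart overlapped by 1 library, and skin spanned the spleen range. It fell in bone (-1.49, SE 0.31, adjusted p = 0.00165) and muscle (-1.60, SE 0.32, adjusted p = 0.000566), both held in all 23 alternatives. In heart it fell by 1.02 (SE 0.28, adjusted p = 0.0207), but not without heart replicate 2 (adjusted p = 0.0871), and in skin it stood at -0.08 (adjusted p = 0.875).

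Hist3h2a, an H2A gene on chromosome 11, had 6.94, 5.62 and 13.3 CPM in bone, 6.23, 5.05 and 3.64 CPM in muscle, 12.6, 6.32 and 6.51 CPM in skin, 5.56, 3.70 and 4.49 CPM in heart, and 7.38 to 16.8 CPM (median 12.3 CPM) in spleen. Muscle and heart were below all of spleen, and bone and skin each had 1 library within it. It fell in heart (-1.40, SE 0.33, adjusted p = 0.00809), held in all 23 alternatives, and in muscle (-1.40, SE 0.39, adjusted p = 0.0109), not held without spleen replicate 4 (adjusted p = 0.0641). Its neighbour Hist3h2ba, an H2B gene, was called in no tissue, at -0.46 in bone, -0.27 in muscle Tregs, 0.32 in skin and -0.42 in heart.

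In the Hist2 cluster 2 of 8 genes tested rose in skin, Hist2h2bb and Hist2h3b, where 15% of all genes rose. Hist2h2ab, Hist2h2be and Hist2h4 fell in another tissue. Hist2h2ab, an H2A gene, had 0.624, 0.558 and 0.156 CPM in bone, 0.0842, 1.06 and 0.497 CPM in muscle, 3.32, 2.71 and 1.66 CPM in skin, 1.04, 1.26 and 3.15 CPM in heart, and 1.87 to 4.92 CPM (median 3.18 CPM) in spleen. Bone and muscle lay below spleen. It fell in bone (-2.81, SE 0.80, adjusted p = 0.0175) and muscle (-2.55, SE 0.80, adjusted p = 0.0211; not without muscle replicate 1, adjusted p = 0.0668), and 303 of its 444 exon bases overlap another gene. Hist2h4, an H4 gene, fell in heart (-0.87, SE 0.20, adjusted p = 0.00596), with 33.3, 16.8 and 29.0 CPM in heart and 41.1 to 55.5 CPM in spleen, but not when all 18 libraries were fitted together (adjusted p = 0.177). Hist2h2be, an H2B variant known from olfactory neurons in mice, fell in muscle (-1.15, adjusted p = 0.0496) and heart (-1.01, adjusted p = 0.0499), held in 9 and 6 of 23 alternatives. Without muscle replicate 1 it was not called in muscle in the same edgeR test (-1.08, adjusted p = 0.109).

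**Figure D3:**
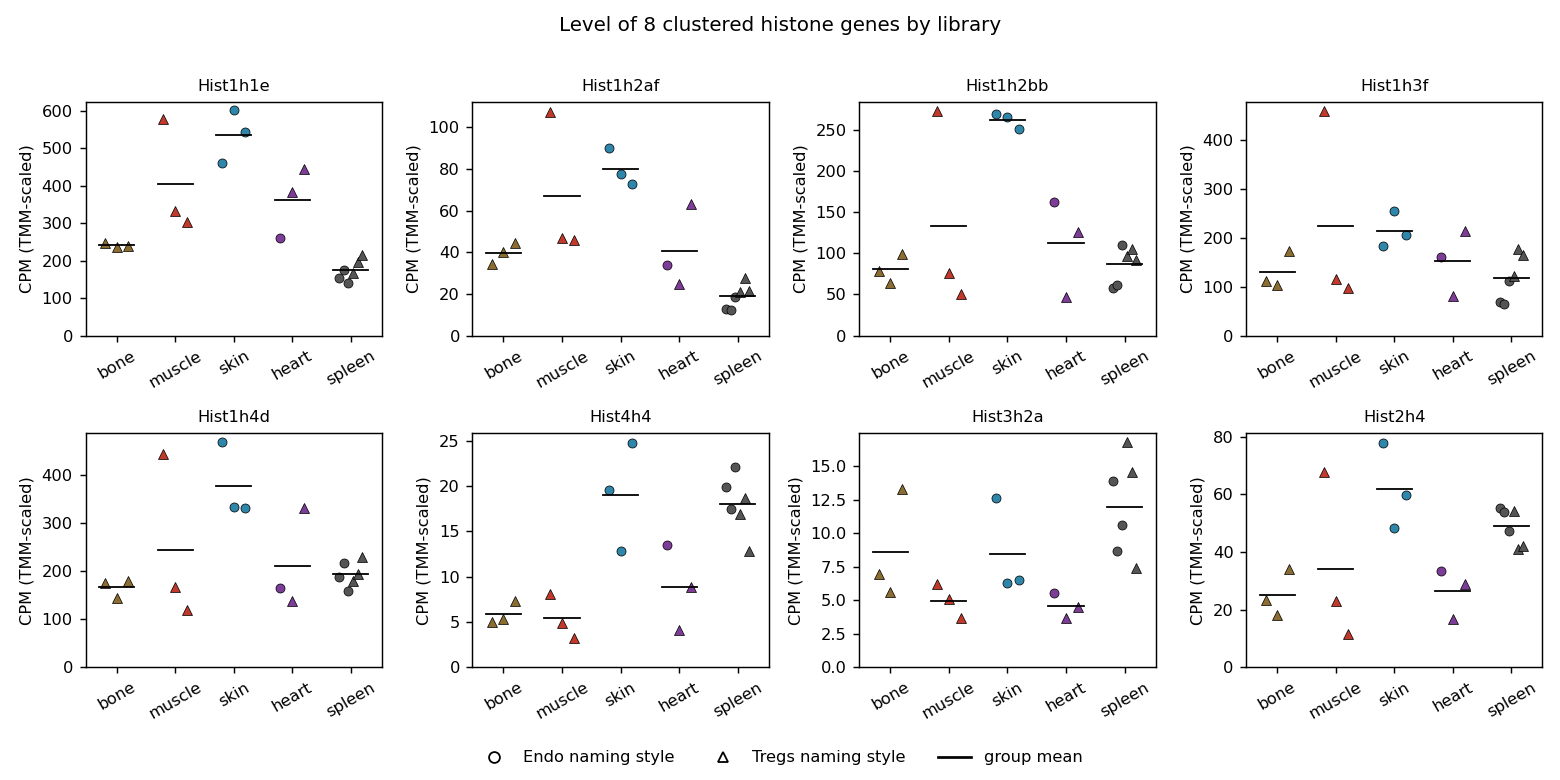
TMM-scaled CPM (vertical axis) of 8 clustered histone genes, 1 point per library, by tissue (horizontal axis), with circles for the Endo naming style, triangles for the Tregs style and a line at the group mean. Hist1h1e is above all spleen libraries in all 12 injured libraries, while Hist4h4 is below them in bone and muscle and Hist3h2a in muscle and heart.

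The makeup of the histone sum is described here with no test. H4 genes made up 15.6, 14.1 and 14.7% of it in bone, 13.2, 13.1 and 11.5% in muscle, 19.2, 13 and 15.2% in skin, 15.4, 12.4 and 15.9% in heart, and 18 to 21.8% (median 21.1%) in spleen. In 11 of 12 injured libraries the H4 share was below that of every spleen library, the exception being skin replicate 1. Genes outside Hist1 made up 5.50 to 6.27% of the sum in bone, 4.56 to 5.68% in muscle Tregs, 4.80 to 5.56% in skin, 4.90 to 6.04% in heart and 7.14 to 9.54% in spleen. That share was below every spleen library in 12 of 12. H1 had its highest share in heart replicate 2, at 47.2%, against 24.3 to 37.4% in spleen.

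The calls can also be set beside the length annotated after the stop codon, as a description. Of the 11 members with over 1000 bases annotated after the stop codon 10 were tested, of which 1 fell in bone, 1 rose and 3 fell in muscle, 3 rose in skin, and 1 rose and 4 fell in heart. Of the 55 with fewer, 50 were tested, or 49 in heart. Of these 2 fell in bone, 3 rose and 1 fell in muscle, 30 rose in skin, and 2 rose and 0 fell in heart. Of all genes, 6.32% fell in bone, 11.3% in muscle and 8.46% in heart, while 14.2% rose in muscle, 15% in skin and 11.8% in heart. All 4 members that fell in heart (Hist2h2be, Hist2h4, Hist3h2a and Hist4h4) are among the first. Of 30 members tested with over 50% unique words 14 rose in skin, as did 19 of 30 with fewer, and the medians there were 1.19 and 1.63 on the log2 scale. The lower calls among these members, 3 in bone, 4 in muscle and 4 in heart, were all in members with over 50% unique words.

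Of the testis members, Hist1h1t, Hist1h2aa and Hist1h2ba, which replace the common linker, H2A and H2B histones in male germ cells, none passed the filter. Hist1h1t had 2 counts over the 18 libraries, 1 in skin and 1 in spleen. Hist1h2ba had 2 counts and Hist1h2aa 0, which allows a level of up to 0.0134 CPM over all libraries, counting error only. Hist2h3c1 also had 0 counts, and all of its annotated words recur in other transcripts. Hist1h2al and Hist2h2aa1 were also left out as too low in every fit, and Hist1h2ap in that of heart against spleen.

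Between the injured tissues most calls were of skin against bone. Against bone, 12 of 62 genes were higher in skin, where 4.55% of all genes were called higher and 3.56% lower (8.11% in all), led by Hist1h4a (log2 difference 2.99, SE 0.66, adjusted p = 0.00943) and Hist1h4j (2.78, SE 0.71, adjusted p = 0.0257). This comparison crosses naming styles and rests on the difference between spleen styles: without the style in the model 33 genes passed, and leaving out single bone or skin libraries gave 4 to 7. Hist1h1e was higher in muscle than in bone (0.75, adjusted p = 0.0194), where 2.29% of all genes were higher and 2.57% lower (4.86% in all), and in heart than in bone (0.70, adjusted p = 0.0302), where 4.02% were higher and 2.66% lower (6.68% in all). It was the only member called in each, and in neither comparison was it called with bone library b or c left out. The call of muscle over bone was also lost without muscle replicate 1, and that of heart over bone without bone replicate 1, heart replicate 2 or heart replicate 3.

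Against muscle, 0 genes passed in skin (quasi-likelihood F test of edgeR), where 0.692% of all genes were higher and 0.621% lower (1.31% in all). Skin against muscle also crosses naming styles and rests on the difference between spleen styles. At an unadjusted p below 0.05, 8 were higher, DESeq2 called 2 and limma-voom 0. Without muscle replicate 1 the count was 36, and the share of all genes in that setting was not computed. In heart against muscle 0 passed in the same test, where 0.358% of all genes were higher and 0.0942% lower (0.452% in all), with 1 higher and 1 lower at an unadjusted p below 0.05, and DESeq2 and limma-voom called 0. In heart against skin 3 were lower, where 1.49% of all genes were higher and 0.892% lower (2.38% in all). They were Hist1h1e (-0.87, adjusted p = 0.0336), Hist1h2ag (-1.65, adjusted p = 0.0355) and Hist1h4k (-1.81, adjusted p = 0.0427), and 31 were lower at an unadjusted p below 0.05. Leaving out a skin library gave 0 or 1 call, leaving out heart replicate 1 or 2 gave 0, and leaving out heart replicate 3 gave 7.

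Promoters are shown for Hist1h1e and Hist1h2af, which rose in muscle, skin and heart, and for Hist4h4, which fell in bone, muscle and heart. The windows run from 250 bases before to 50 after the start in RefSeq on GRCm38.p6, read along the gene's strand, and 61 members matched by symbol or synonym. The words searched on both strands were CCAAT, the octamer ATTTGCAT, TATAAA and AAACACA, an H1 gene word; none contains another. Matches are in capitals, and a match on the other strand reads as the reverse complement.
Hist1h1e, chr13:23622509-23622808, minus strand: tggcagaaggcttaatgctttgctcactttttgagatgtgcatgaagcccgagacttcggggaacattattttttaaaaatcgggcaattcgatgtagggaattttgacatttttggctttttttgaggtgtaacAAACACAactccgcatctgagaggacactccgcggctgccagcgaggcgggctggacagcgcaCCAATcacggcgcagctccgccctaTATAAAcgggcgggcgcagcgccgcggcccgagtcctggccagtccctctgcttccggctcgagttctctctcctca
Hist1h2af, chr13:23533625-23533924, plus strand: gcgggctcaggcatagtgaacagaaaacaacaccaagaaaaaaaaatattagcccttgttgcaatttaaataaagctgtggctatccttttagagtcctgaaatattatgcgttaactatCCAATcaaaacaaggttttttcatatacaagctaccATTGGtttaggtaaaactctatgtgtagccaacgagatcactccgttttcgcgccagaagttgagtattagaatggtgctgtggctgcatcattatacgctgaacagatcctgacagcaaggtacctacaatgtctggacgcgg
Hist4h4, chr6:136804382-136804681, minus strand: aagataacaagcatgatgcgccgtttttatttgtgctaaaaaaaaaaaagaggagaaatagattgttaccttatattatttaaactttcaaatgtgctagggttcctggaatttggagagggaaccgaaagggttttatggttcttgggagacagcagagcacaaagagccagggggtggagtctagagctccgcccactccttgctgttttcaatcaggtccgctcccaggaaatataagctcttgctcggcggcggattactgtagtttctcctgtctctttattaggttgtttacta
CCAAT was in all 49 windows of H1, H2A, H2B and H3 genes, in 3 of 12 of H4 genes and in 37.92% of 27025 promoters of all genes. ATTTGCAT was in 7 of 17 H2A windows, 6 of 16 H2B windows, no other member and 1.75% of all promoters. AAACACA was in 5 of 6 H1 windows and 7.14% of all promoters, and TATAAA in 35 of 61 windows and 14.16% of all promoters. H2A and H2B genes that point away from each other share part of their window, so these windows are not independent. The window of Hist4h4 held none of the 4 words.

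Other genes of S phase were called higher in each tissue, in differing number. The list of 28 S phase and replication genes had 5 higher in bone, 23 in muscle Tregs, 26 in skin and 20 in heart, and 0 lower in any. Its sum was 1485, 1303 and 1277 CPM in bone, 2349, 1901 and 1871 CPM in muscle, 2055, 1970 and 1996 CPM in skin, 1601, 1481 and 2171 CPM in heart, and 791 to 1278 CPM in spleen. The median log2 fold change of the list was 0.42 in bone, 1.10 in muscle Tregs, 1.40 in skin and 0.92 in heart, against -0.24, 0.59, 1.49 and 0.21 for the histone genes. Rrm2, a subunit of the enzyme that makes deoxynucleotides, rose in skin (2.06, adjusted p = 0.00133) and muscle (1.52, adjusted p = 0.00902). Of 20 genes of G2 and mitosis, 5, 13, 20 and 9 rose in bone, muscle, skin and heart. Of all genes, 8.48, 14.2, 15 and 11.8% rose there. The sum of the 20 genes was 1382, 1303 and 1443 CPM in bone and 1068, 999.7 and 2170 CPM in heart. In muscle it was 2684, 1546 and 1950 CPM, on both sides of the 1791, 1769 and 1884 CPM of skin. Spleen held 130.5, 131.9 and 518.7 CPM in the naming style of skin and up to 871.3 CPM in the other. How far the calls in skin rest on the low spleen libraries was not tested. Mki67, a marker of cycling cells, rose in skin (2.61, adjusted p = 0.0174). It stood at 1.07 in bone (adjusted p = 0.346), 1.67 in muscle (adjusted p = 0.0963) and 1.68 in heart (adjusted p = 0.181).

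Histone RNA can be set against this S phase RNA library by library. The ratio of the histone sum to the S phase sum was 1.85, 1.79 and 2.31 in bone, 3.37, 1.55 and 1.27 in muscle, 3.29, 3.17 and 2.96 in skin, 2.04, 1.65 and 2.05 in heart, and 2.27 to 3.11 (median 2.62) in spleen. Muscle replicates 2 and 3 and all heart libraries were below every spleen library, 2 of 3 bone libraries were below, and 2 of 3 skin libraries were above every spleen library. Muscle replicate 1 had the highest ratio of all libraries. The ratio is a description of these libraries and was not tested.

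**Figure D4:**
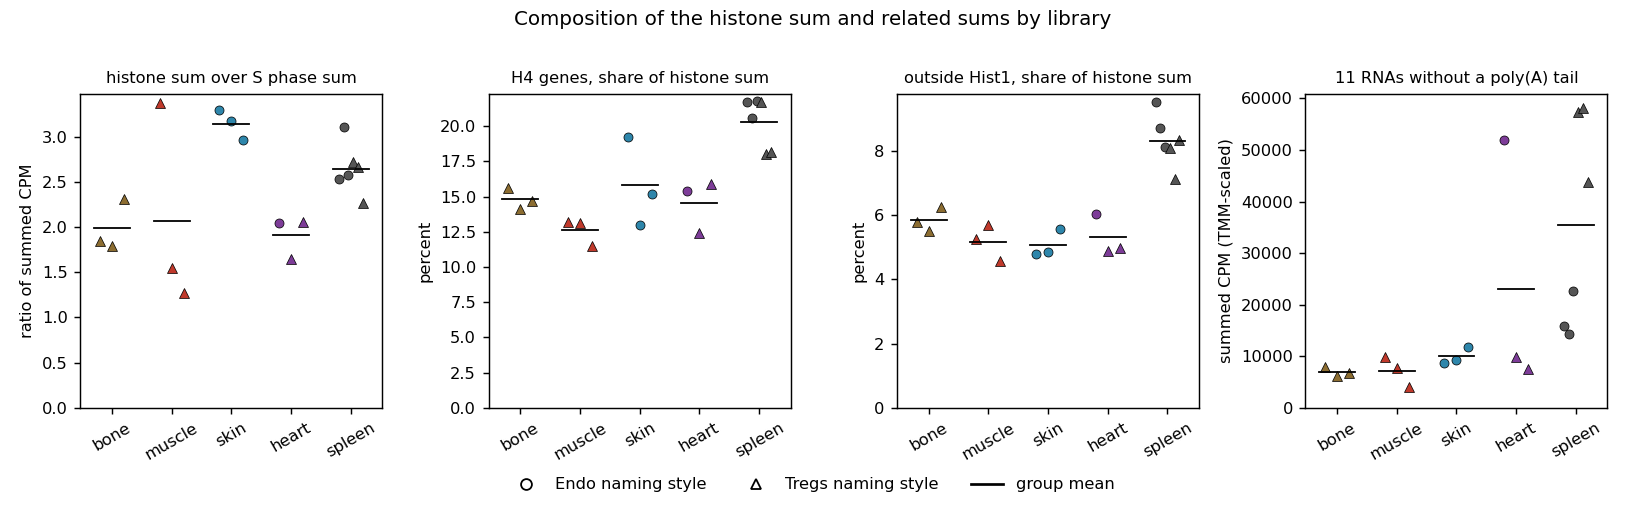
For each library, by tissue (horizontal axis), the ratio of the summed histone level to the summed S phase level, the percent of the histone sum from H4 genes, the percent from genes outside Hist1, and the summed TMM-scaled CPM of 11 RNAs without a poly(A) tail, with circles for the Endo and triangles for the Tregs naming style and a line at the group mean. The share outside Hist1 is 4.56 to 6.27% in injured tissues and 7.14 to 9.54% in spleen.

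RNAs that also lack a poly(A) tail but lie outside the clusters were called in the lower direction. Of 11 such RNAs, among them 7SK RNA and the RNA parts of RNase P and RNase MRP, 9 were lower in bone, 10 in muscle Tregs, 4 in skin and 1 in heart, with 0 higher. Of all genes, 6.32, 11.3, 12.8 and 8.46% were lower in bone, muscle, skin and heart. Their sum was 6098 to 7878 CPM in bone, 4028 to 9747 CPM in muscle, 8710 to 11820 CPM in skin and 7601 to 51850 CPM in heart. Spleen split by naming style, with 15910, 14350 and 22670 CPM in replicates 1 to 3 and 57420, 58210 and 43690 CPM in replicates 4 to 6. Heart replicate 1 was far above the other heart libraries. Ribosomal RNA genes took 1.48 to 3.24% of counts in injured libraries and 3.10 to 6.76% in spleen. Whether RNA was selected by poly(A) is not given in the sources used here, and the part of these differences in the histone results was not tested.

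Genes for the machinery of histone messages were called in shares near or below those of all genes. Of 18 genes tested for 3′ end formation, transcription and decay of these messages, 0 were called in bone, 2 rose and 1 fell in muscle, 3 rose in skin and 1 rose in heart, where 8.48, 14.2, 15 and 11.8% of all genes rose in bone, muscle, skin and heart. Slbp, which binds the stem-loop, rose in muscle (0.72, adjusted p = 0.00135), skin (0.88, adjusted p = 0.000182) and heart (0.49, adjusted p = 0.043), and stood at 0.37 in bone (adjusted p = 0.117). Its level was 74.4 to 96.3 CPM in bone, 103 to 122 CPM in muscle, 105 to 110 CPM in skin, 84.6 to 94.9 CPM in heart and 47.5 to 75.5 CPM in spleen. Casp8ap2, a component of the histone locus body, rose in skin (0.74, adjusted p = 0.0194), and Cpsf2 of the cleavage complex in skin (0.38, adjusted p = 0.0487) and muscle (0.40, adjusted p = 0.0365). Npat, the coactivator of histone gene transcription, was not called, at 0.01 in bone, -0.07 in muscle Tregs, 0.19 in skin and -0.16 in heart.

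Of 20 histone chaperones, 1 rose and 1 fell in bone, 7 and 1 in muscle, 6 and 1 in skin, and 3 and 1 in heart. Among all genes, 8.48, 14.2, 15 and 11.8% rose in bone, muscle, skin and heart, and 6.32, 11.3, 12.8 and 8.46% fell. Asf1b, which hands new H3 and H4 to the assembly factors, rose in skin (2.59, adjusted p = 1.0e-08), muscle (1.13, adjusted p = 0.000293) and heart (0.86, adjusted p = 0.0139). Chaf1a of the CAF-1 assembly complex rose in skin (1.83, adjusted p = 0.000463) and muscle (1.22, adjusted p = 0.00936). Daxx, which deposits the replacement histone H3.3 together with Atrx, fell in muscle (-0.58), skin (-0.65, adjusted p = 0.0126) and heart (-0.50).

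Replacement histones outside the clusters, of which 10 were tested, rose in 2 cases in bone, 3 in muscle Tregs, 6 in skin and 4 in heart, and 0 fell. In the same comparisons 8.48, 14.2, 15 and 11.8% of all genes rose. H1f0, the linker histone of slowly dividing and differentiated cells, rose in all 4 tissues, by 0.84 in bone (adjusted p = 0.0121), 2.03 in muscle (adjusted p = 1.03e-06), 2.31 in skin (adjusted p = 2.09e-07) and 1.81 in heart (adjusted p = 7.28e-06). Its level was 51.2 to 72.8 CPM in bone, 110 to 198 CPM in muscle, 125 to 152 CPM in skin, 91.5 to 133 CPM in heart and 24.1 to 46.5 CPM in spleen, so that no injured library overlapped with spleen. Cenpa, the centromere H3, also rose in all 4. H3f3b rose in muscle (0.54), skin (0.85) and heart (0.79), H3f3a in skin (0.75), and H2afz in heart (0.85, adjusted p = 0.00331).

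Markers of other cell types that a sort could let through did not all move one way. Shares of all genes called lower were 6.32, 11.3, 12.8 and 8.46% in bone, muscle, skin and heart. B cell markers were lower in 3 of 10 genes in bone, 9 in muscle Tregs, 8 in skin and 3 in heart. Their sum was 511 to 565 CPM in bone, 248 to 331 CPM in muscle, 438 to 530 CPM in skin, 277 to 525 CPM in heart and 539 to 1000 CPM in spleen, with Ms4a1 at 0 in muscle. Erythroid markers, 9 in number, were lower in 3, 5, 4 and 3 of the 5 tested in bone, muscle, skin and heart, and summed to at most 9.83 CPM in injured libraries and to 5.03 to 35.6 CPM in spleen. Hbb-bs, Hbb-bt, Hba-a1 and Hba-a2 were at 0 in muscle and skin.

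The list of 6 germinal centre and plasma cell markers had a higher sum in every injured library than in spleen, with skin the highest. It summed to 219 to 297 CPM in bone, 248 to 304 CPM in muscle, 430 to 453 CPM in skin, 228 to 279 CPM in heart and 128 to 174 CPM in spleen. Prdm1 rose in all 4 tissues, Xbp1 rose in bone, skin and heart, and Jchain fell in muscle and skin. Prdm1, whose product also acts in effector Tregs, stood at 3.08 on the log2 scale in skin (adjusted p = 1.86e-11). Jchain was at 0 in all 3 muscle libraries.

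The other lists were at low levels. Shares of all genes called higher were 8.48, 14.2, 15 and 11.8% in bone, muscle, skin and heart. Those called lower were 6.32, 11.3, 12.8 and 8.46%. Macrophage and monocyte markers, 10 in number, summed to at most 68.8 CPM in any library, in heart replicate 1, and 2 were lower in bone, 3 in muscle Tregs, 1 in skin and 0 in heart of 8 tested. Neutrophil markers, 9 in number, reached at most 40.7 CPM, with 1 of 4 tested higher in each tissue and 2 lower in muscle and in skin. CD8 T and NK cell markers, 7 in number, summed to 72.5 to 109 CPM in muscle and at most 57.7 CPM elsewhere, with 1 higher in each tissue. Fibroblast markers, 6 in number, reached 107 CPM in skin replicate 3 and at most 48.0 CPM elsewhere, with 1 higher in bone and in muscle and 0 in skin and heart. Treg and T cell markers were higher in 4 of 8 genes in bone, muscle and skin and 3 in heart, and 1 was lower in skin. The part of other cells in the histone results was not tested.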

How the data were processed

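Per the labels, sorted Treg RNA was sequenced from 18 samples in 5 groups. The deposited tables hold raw read counts per gene, 1 table for bone, muscle, skin and spleen and 1 for heart and the same spleen libraries. Per the submitters' processing notes the authors used STAR, featureCounts and limma on GRCm38, without versions. Not given in the sources used here are the annotation, the use of strand, the handling of reads that fit several genes, poly(A) selection and any molecular identifiers.

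The members and their classes were taken from gene names, and the other lists were chosen with earlier results of these data known. Counts were fitted over all genes with edgeR 4.0.16 (R 4.3.3): filterByExpr, TMM, a robust quasi-likelihood F test with tissue and naming style as terms, and Benjamini-Hochberg adjustment, calls being at 0.05. The fit had 15 libraries for bone, muscle and skin, 9 for heart against spleen and 18 for heart against other tissues. The test ran on simulated data with known changes first. DESeq2 1.42.0, limma 3.58.1 (voom), RLE and upper-quartile scaling, other filters, other sets of libraries and each library of the tissues compared left out were alternatives. Gene lengths, shared words and stem-loops came from GENCODE M21, promoters from RefSeq.

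Genes named were the 3 most abundant of each class, the 3 highest and 3 lowest called in each tissue against spleen, the testis and small-cluster members and Hist2h2be, and from each other list up to 4 called in skin plus Slbp, Npat, Mki67, Rrm2, H2afz, H3f3a and H3f3b. Any other gene was named after its values were seen. Replicates of a group differed by more than sampling noise (chi-square per degree of freedom at least 10.88), and whether spleen libraries came from separate animals is not stated. The limit for a count of 0 is 3 counts. The values of 1 marker gene are not reported here.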

Additional observations from a re-analysis of the deposited data

Results flagged for a closer look

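In spleen, 1 library lay far from the other 5 in 3 of 32 sets of values looked at. Chance alone gives about 1 in 20 for independent sets, which these are not, since class sums stand beside their own members. Hist1h2ak reached 60.7 CPM in spleen replicate 6. Hist1h1t reached 0.067 CPM and Hist1h2ba 0.166 CPM, each from 1 count in 1 library with none in the others. Such values are always flagged, so the rate of 1 in 20 does not apply to them.

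The effect over spleen differed between tissues in a direct test for 1 gene in muscle against bone, 12 genes in skin against bone, 1 gene in heart against bone and 3 genes in heart against skin (quasi-likelihood F test of edgeR, adjusted over all genes by Benjamini-Hochberg). All 12 were higher in skin and all 3 lower in heart. These tissues share the spleen libraries, and skin and bone carry different naming styles, so skin against bone rests on the difference between styles as seen in spleen alone.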

How the results depend on the processing

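A gene in a comparison was followed in 130 cases, and 70 were called. Of these, 9 kept the call in every one of up to 23 alternatives, 61 lost it in at least 1 (11 of them only without spleen replicates 1 and 2) and 0 changed direction. The causes of the moves below were not tested. Counts are of histone genes called, and shares of all genes were not computed for the alternatives.

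Against spleen, the 0 genes higher in bone became 1 with no naming style or with DESeq2, and 3 with no filter. The 3 lower in bone became 10 with no filter. The 4 higher in muscle became 15 with no naming style, 8 with DESeq2, 27 with no filter and 7 when fitted with all libraries. The 4 lower in muscle became 2 with 1 naming style only. The 35 higher in skin became 4 without spleen replicates 1 and 2. The 3 higher in heart became 10 with no filter, and the 4 lower became 2 when fitted with all libraries.

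Between tissues, muscle over bone (1 gene) gave 5 with DESeq2 and 35 with no filter. Skin over bone (12) gave 33 with no naming style, 7 with upper-quartile scaling, 24 with DESeq2, 22 with limma-voom, 46 with no filter and 2 without spleen replicates 1 and 2. Skin over muscle (0) gave 1 with no naming style, 2 with DESeq2 and 30 with no filter. Heart over bone (1) gave 0 with no naming style, 2 with DESeq2, 7 with no filter, 5 with only the 2 groups compared and 2 without spleen replicates 1 and 2. Heart over muscle (0) gave 3 with no filter. Heart over skin (3) gave 15 with 1 naming style only, 9 with DESeq2, 5 with limma-voom, 39 with no filter and 1 without spleen replicates 1 and 2. The log2 ratio of summed CPM in skin (1.25) became 1.37 with 1 naming style only.

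The replicate numbers did not pair the samples, since correlations of same-numbered deviations ran from -0.125 to 0.158. With the replicate block in place of naming style, genes called numbered 1 lower in bone, 17 higher in skin, 10 higher in heart, 0 for muscle over bone, 6 for skin over bone, 5 for skin over muscle and 0 for heart over bone.

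In alternatives chosen after seeing the data, leaving out muscle replicate 1 and heart replicate 3 gave 3 higher and 7 lower in bone, 8 lower in muscle, 0 for muscle over bone, 47 higher in skin, 40 for skin over bone, 36 for skin over muscle and 28 for heart over skin. Heart replicate 3 is not in the fit of bone, muscle, skin and spleen, so counts among these come from leaving out muscle replicate 1 alone. Leaving out spleen replicates 1 and 2 together with the naming style gave 1 higher in bone, 7 higher in muscle, 2 lower in heart, 31 for skin over bone, 1 for skin over muscle and 0 for heart over bone.

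For each comparison, 1 library at a time was left out, from the 2 tissues compared only. A library of another tissue in the same fit also moved counts, as given above for muscle replicate 1. Against spleen the range was 0 to 1 higher and 1 to 3 lower in bone, and 3 to 15 higher and 1 to 8 lower in muscle. It was 22 to 35 higher and 0 to 0 lower in skin, and 2 to 11 higher and 2 to 5 lower in heart. Between tissues the range was 0 to 8 for muscle over bone, 4 to 7 for skin over bone and 0 to 36 for skin over muscle. It was 0 to 1 for heart over bone, 0 to 0 for heart over muscle and 0 to 7 for heart over skin. The log2 ratio of summed CPM ran from -0.06 to 0.11 in bone, 0.01 to 1.04 in muscle Tregs, 1.20 to 1.30 in skin and 0.11 to 0.54 in heart.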
